A study of Sorghum bicolor with 12 samples.

Results

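Membrane phospholipid turnover and the synthesis of plastid glycolipids were followed through 6 transcripts of Sorghum bicolor, out of 27989 listed in the deposited expression tables. They were taken by identifier from the rows that the study tabulated for their drought ratios in these same libraries. Their drought values are therefore given as description, with no test. The names are those of the study: phospholipase D alpha 1 (PLD alpha 1, Sb08g022520.1), phospholipase D alpha 2 (PLD alpha 2, Sb02g024910.1), a glycerophosphodiester phosphodiesterase (GDPD, Sb06g014320.1), the galactosyltransferase MGD2 (Sb07g027910.1), the glycosyltransferase SQD2 (Sb03g006480.1) and XPL1 (Sb03g031940.1).

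RNA-seq was carried out on 2 sorghum genotypes, IS20351 (drought sensitive) and IS22330 (drought tolerant), grown 1 plant per pot. Well-watered (WW) plants were held close to a fraction of transpirable soil water (FTSW) of 0.7, and drought stressed (DS) plants were kept at 0.2 for 9 days, all of them being 42 days old at harvest. Each of the 4 groups had 3 biological replicates (12 libraries), with 26398759 to 28680141 reads on transcripts per library. Polyadenylated RNA came from the leaf, named leaf meristem in the extraction protocol, and each genotype is 1 accession, so a genotype difference cannot be told apart from any other difference between these 2 accessions.

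Plants can lower their need for phosphate by breaking membrane phospholipids down and filling the membranes with lipids that carry sugar or sulfur head groups instead of phosphate. Phospholipase D cuts the head group from phospholipids and leaves phosphatidic acid, which is also a signal under water deficit. Glycerophosphodiester phosphodiesterases split what remains of a phospholipid once its acyl chains are removed, MGD2 of Arabidopsis makes galactolipid and is induced when phosphate is short, and SQD2 of Arabidopsis completes the sulfolipid of plastid membranes. XPL1 of Arabidopsis methylates phosphoethanolamine on the way to phosphocholine, and so works in the making of phospholipid rather than in its replacement.

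The deposited tables hold group means of unique reads and of RPKM, the reads scaled to transcript length and to the library's total, and the reads of each library were solved from the pair of means. Libraries are named a, b and c by their total within a group, which is a name only. Library c of DS IS22330 stood apart: over 19022 transcripts its log2(RPKM + 0.1) had a mean Pearson's r of 0.84 with the other DS IS22330 libraries and of 0.92 with the WW libraries of that genotype. The 19 light reaction rows of the study's table, used as a leaf check, had reads in all 12 libraries. The study listed these rows for drought ratios in these samples, so their sums follow drought by choice and are no independent check of treatment. Their summed RPKM was 9874 to 12887 in WW IS20351, 1844 to 2154 in DS IS20351 and 5036 to 8511 in WW IS22330. In DS IS22330 their sum was 1814 and 2017 in libraries a and b and 10803 in library c. Library b of WW IS22330 was also nearer to the other treatment, with a mean r of 0.92 to the DS libraries of its genotype and of 0.90 to its own group, and it had the lowest light reaction sum of the WW libraries. For the ratios and pairs that rest most on library c of DS IS22330, values without it are given as well. Library b of WW IS22330 was also left out alone, with values printed for fewer results. The shares over all transcripts and the nearest transcripts used all 12 libraries. No fit of the ratios left out both libraries.

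The 6 transcripts spanned very different levels, from 0 RPKM to 339 RPKM. The members of the glycolipid branch, SQD2 and MGD2, were high in WW IS20351 and low in most other libraries, and XPL1 and GDPD followed them in IS20351 over a narrower range. PLD alpha 1 ran the other way, with more RNA in drought stressed plants. In bulk tissue, a lower share of cells that hold a transcript and less of it per cell cannot be told apart.

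**Figure D1:**
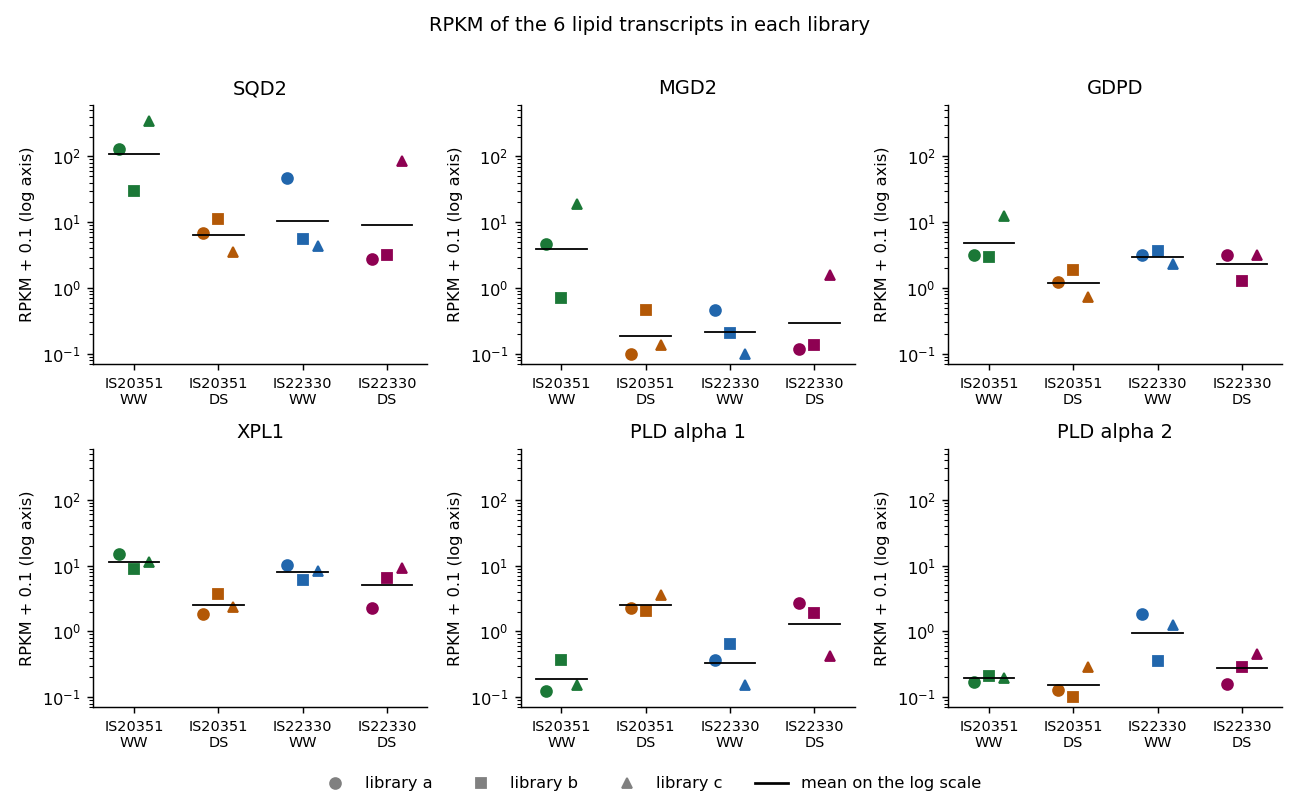
RPKM + 0.1 of the 6 lipid transcripts on a log axis, 1 point per library (circle a, square b, triangle c) and a bar at the mean on the log scale for each of the 4 groups. SQD2 reached 339 RPKM in WW IS20351, and library c of DS IS22330 (85.9 RPKM) lay far above the other DS libraries of that genotype.

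SQD2, the sulfolipid enzyme, had the highest mean RPKM of the 6 in every group. In WW IS20351 it had 129, 30.1 and 339 RPKM in libraries a, b and c, from 6118, 1465 and 16724 reads. In DS IS20351 it had 6.84, 10.96 and 3.41 RPKM, so the groups of this genotype did not overlap. In IS22330 the WW libraries had 47.3, 5.44 and 4.28 RPKM and the DS libraries 2.61, 3.10 and 85.9 RPKM, which overlapped. The order of the group means was 166 ± 158 RPKM in WW IS20351, 30.5 ± 48.0 in DS IS22330, 19.0 ± 24.5 in WW IS22330 and 7.07 ± 3.78 in DS IS20351 (SD, n = 3 each), and libraries of the last 3 groups overlapped in every pairing. The log2 ratio of DS over WW in the edgeR fit was -4.72 ± 1.59 (SE) in IS20351 and 0.91 ± 1.37 in IS22330. Without library c of DS IS22330 the latter turned to -2.80 ± 1.21, and without library a of WW IS22330 it was 2.88 ± 1.57, so its direction and its size in IS22330 each rested on 1 library.

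MGD2, the galactolipid enzyme, was scarce outside WW IS20351. It had 4.50, 0.617 and 18.9 RPKM there, and 0, 0.360 and 0.0373 RPKM in DS IS20351, without overlap. The WW IS22330 libraries had 0.357, 0.109 and 0 RPKM and the DS ones 0.0188, 0.0375 and 1.46 RPKM. The reads behind these low values were few: 19, 6 and 0 in WW IS22330 and 1, 2 and 78 in DS IS22330. A count of 0 allowed up to 3 reads, or 0.0585 RPKM in library a of DS IS20351 and 0.0545 RPKM in library c of WW IS22330, for counting error only. The log2 ratio of DS over WW was -6.08 ± 1.98 (SE) in IS20351 and 1.89 ± 1.75 in IS22330, the latter being 3.36 ± 2.30 without library a of WW IS22330. In the 9 fits that left out 1 library and kept the transcript, the IS22330 ratio ranged from 1.30 to 3.36. Without library c of DS IS22330 the transcript no longer had 1 RPKM in 3 libraries and was not fitted, and both remaining DS libraries were below the WW libraries a and b. The same held for the fit without library a or c of WW IS20351, the only other libraries with 1 RPKM.

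GDPD, which releases glycerol phosphate from deacylated phospholipid, had 3.10, 2.87 and 12.3 RPKM in WW IS20351 and 1.13, 1.74 and 0.636 RPKM in DS IS20351. The ranges did not overlap, although libraries a and b of the WW group were close to the level of IS22330. IS22330 had 3.13, 3.50 and 2.23 RPKM in WW and 3.03, 1.17 and 3.07 RPKM in DS plants, 2 of the 3 DS libraries lying within the WW range. The log2 ratio of DS over WW was -2.53 ± 0.66 (SE) in IS20351, or -1.46 ± 0.54 without library c of its WW group. In IS22330 it was -0.21 ± 0.62 and ranged from -0.53 to 0.15 when 1 library was left out, without a steady sign.

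XPL1, the phosphocholine enzyme, varied less between the replicates of each group than SQD2 or MGD2. It had 14.8, 8.90 and 11.2 RPKM in WW IS20351 against 1.76, 3.62 and 2.23 RPKM in DS IS20351. In IS22330 it had 9.97, 6.06 and 8.10 RPKM in WW plants and 2.21, 6.44 and 9.05 RPKM in DS plants, where library a alone was below the WW range. The log2 ratio of DS over WW was -2.31 ± 0.50 (SE) in IS20351 and -0.37 ± 0.47 in IS22330, the latter being -0.999 ± 0.441 without library c of DS IS22330 and 0.06 without library a.

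PLD alpha 1, which makes phosphatidic acid, was close to absent in WW plants. It had 0.0265, 0.270 and 0.0509 RPKM in WW IS20351 (2, 21 and 4 reads) and 2.17, 1.97 and 3.42 RPKM in DS IS20351 (157, 147 and 259 reads), without overlap. In IS22330 it had 0.267, 0.542 and 0.0516 RPKM in WW plants and 2.60, 1.83 and 0.319 RPKM in DS plants, where library c lay within the WW range. The log2 ratio of DS over WW was 4.36 ± 1.05 (SE) in IS20351 and 2.41 ± 0.95 in IS22330. In that genotype it was 2.87 ± 0.91 without library c of the DS group and 3.32 ± 1.13 without library b of the WW group. Its range when 1 library was left out was 1.83 to 3.32.

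PLD alpha 2 had few reads, 0 to 120 per library, and was the only member under the filter of 1 RPKM in at least 3 libraries. It had 0.0730, 0.114 and 0.0983 RPKM in WW IS20351 and 0.0305, 0 and 0.190 RPKM in DS IS20351, where 0 reads allowed up to 0.0444 RPKM. It was highest in WW IS22330, with 1.77, 0.256 and 1.14 RPKM, and had 0.0587, 0.191 and 0.351 RPKM in DS IS22330. All 3 WW IS22330 libraries were above those of WW IS20351, while the WW and DS libraries of IS22330 overlapped. With the filter lowered to 0.1 RPKM, its log2 ratio of DS over WW was -0.38 ± 1.14 (SE) in IS20351 and -2.22 ± 1.08 in IS22330. The alpha 1 and alpha 2 forms thus had their highest group means in different groups, DS IS20351 (2.52 ± 0.79 RPKM, SD) and WW IS22330 (1.05 ± 0.76 RPKM).

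Taking both genotypes, 5 of the 6 members had WW and DS libraries that did not overlap in IS20351, 4 lower and 1 higher under drought, and 0 of 6 did so in IS22330. Of the 19022 transcripts tested, 15.2% lay lower without overlap and 21.5% higher in IS20351, against 9.13% and 4.93% in IS22330. As the members were listed for these ratios, nothing is read from their count. The median log2 ratio of the 5 members that passed the filter was -2.53 in IS20351 and 0.91 in IS22330, beside 0.03 and 0.01 over all transcripts tested. The median of the 4 members still fitted without library c of DS IS22330 was -2.42 in IS20351 and -0.76 in IS22330. Comparisons of the genotypes within a treatment share libraries with the drought ratios and are description too. MGD2 and SQD2 had a log2 ratio of IS22330 over IS20351 of -5.76 ± 1.95 and -3.22 ± 1.48 (SE) in WW plants and of 2.21 ± 1.79 and 2.40 ± 1.44 in DS plants. The DS value of SQD2 turned to -1.30 ± 1.13 without library c of DS IS22330, and MGD2 was not fitted there. The DS value of MGD2 was 4.72 ± 2.59 without library b of DS IS20351, and the WW value of SQD2 was -5.19 ± 1.78 without library a of WW IS22330 and -2.15 without library c of WW IS20351. In WW plants MGD2 lay lower in IS22330 without overlap, as did 9.66% of all transcripts tested, and PLD alpha 2, which was not among those tested, lay higher. In DS plants 0 of the 6 lay apart between genotypes, beside 19.6% of all transcripts in either direction.

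**Figure D2:**
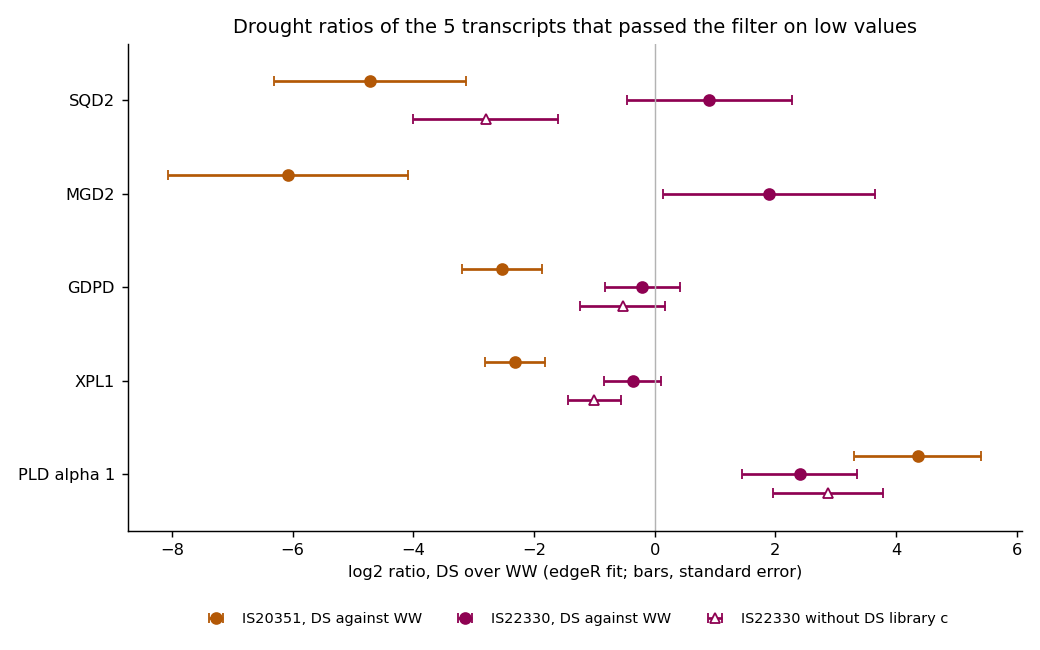
Log2 ratio of DS over WW with its standard error for the 5 transcripts that passed the filter, in IS20351 (filled, orange) and IS22330 (filled, purple), and in IS22330 without library c of the DS group (open triangles, MGD2 not fitted there). SQD2 moved from 0.91 to -2.80 in IS22330 when that library was left out.

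The genotype difference averaged over both water treatments is another contrast of the same 4 group means than the drought ratios, and it was tested. It is free of them only where all groups have equal spread, which they did not. For MGD2 the SD of log2(RPKM + 0.1) was 2.37 in WW and 1.16 in DS IS20351. In IS22330 it was 1.10 in WW and 2.09 in DS plants. None of the 5 members fitted passed an adjusted p of 0.05 in edgeR's quasi-likelihood test with Benjamini-Hochberg adjustment, where 9.79% of all transcripts did, nor the study's stricter thresholds (adjusted p 0.001, log2 ratio 2), which 2.55% passed. The same 5 gave 0 calls at an unadjusted p under 0.05 and 0 calls in DESeq2. The log2 ratio of IS22330 over IS20351 was 0.28 ± 0.65 (SE) for PLD alpha 1 (adjusted p = 0.880), 0.04 ± 0.44 for GDPD (0.977) and 0.37 ± 0.33 for XPL1 (0.614). It was -1.78 ± 1.25 for MGD2 (adjusted p = 0.497) and -0.41 ± 0.97 for SQD2 (0.882), whose wide errors leave room for large differences in either direction. MGD2 passed the filter only through libraries a and c of WW IS20351 and library c of DS IS22330. Over the 12 libraries the ratios within WW and DS plants had opposite signs for all 5, as given above for MGD2 and SQD2. They were 1.26 and -0.70 for PLD alpha 1, -1.12 and 1.20 for GDPD, and -0.60 and 1.34 for XPL1. A small average is therefore no sign that the genotypes were alike within a treatment. The value of SQD2 became -2.26 ± 0.78 without library c of DS IS22330 (adjusted p = 0.0973). PLD alpha 2, with the filter at 0.1 RPKM, had a log2 ratio of 2.40 ± 0.80 with an adjusted p of 0.0933, edgeR as before.

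Whether the members vary together was then examined between replicates, by the deviation of log2(RPKM + 0.1) in each library from its group mean. These deviations leave out the group differences for which the members were listed only where each library belongs to its labelled group. Library c of DS IS22330 was nearer to the WW libraries. It deviated on the log2 scale by 3.25 for SQD2, 2.41 for MGD2 and -1.63 for PLD alpha 1. A drought difference can therefore enter r and its p through that library. Library b of WW IS20351 had a mean r of 0.89 to the DS libraries of its genotype, against 0.85 for libraries a and c. It deviated by -1.86, -2.47 and 0.95 for the same transcripts, and library b of WW IS22330 by -0.92, -0.02 and 0.96. Leaving out library c of DS IS22330 alone therefore need not free r of drought differences. The spread within groups was large: it made up 49.3% of the sum of squares over the 12 libraries for SQD2, 39.0% for MGD2, 43.0% for GDPD, 28.6% for XPL1, 23.1% for PLD alpha 1 and 31.6% for PLD alpha 2. SQD2 and MGD2 deviated together: the library with the most SQD2 was also the one with the most MGD2 in 4 of 4 groups (c, b, a and c in the order WW IS20351, DS IS20351, WW IS22330 and DS IS22330). The library with the least was shared in 3 of 4 groups. Pearson's r was 0.91 (p = 0.0039, exact permutation test within groups, two-sided, n = 12), which after adjustment over the 15 pairs of members gave 0.0579. Spearman's rho was 0.95, with an exact permutation p of 0.0023 and an adjusted p of 0.0347. Leaving out the 2 libraries farthest from the median of SQD2 kept r at 0.93, while the exact permutation p was 0.0764 over the fewer rearrangements that remain. Without library c of DS IS22330 r was 0.87 (exact permutation p = 0.0208, adjusted 0.238).

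**Figure D3:**
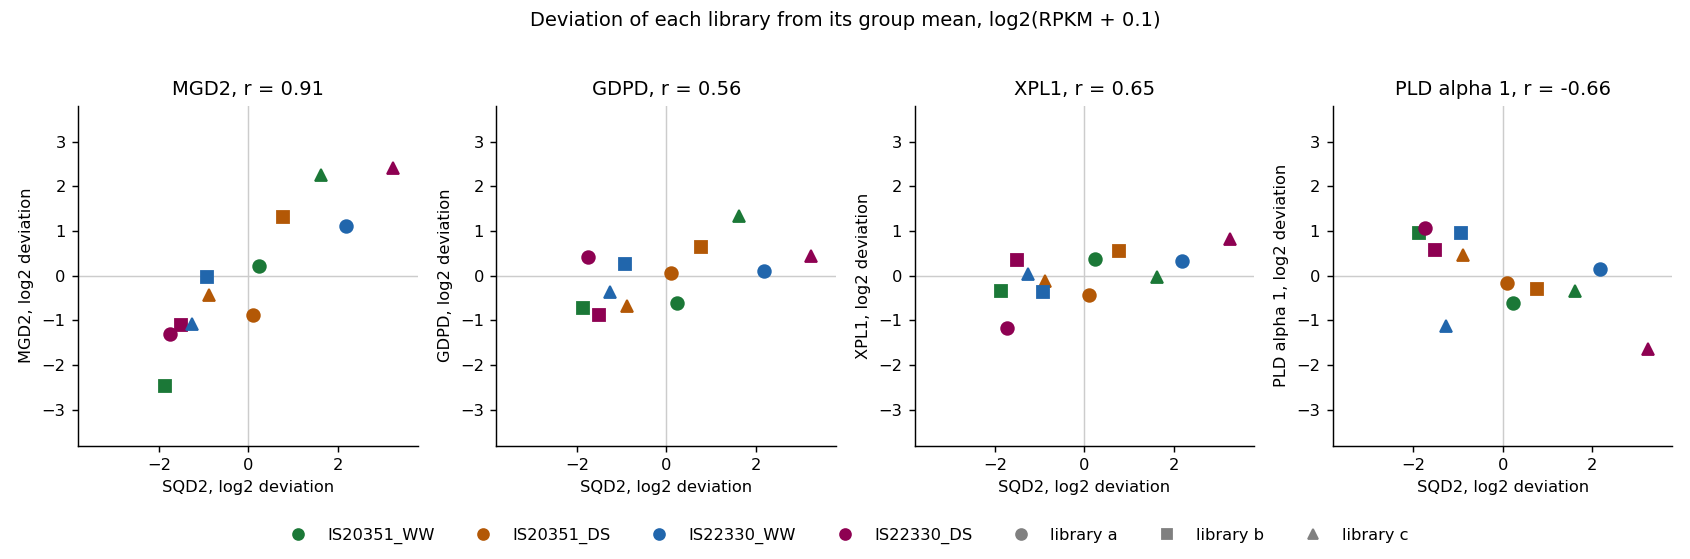
Deviation of each library from its group mean in log2(RPKM + 0.1), with SQD2 on the horizontal axis and MGD2, GDPD, XPL1 and PLD alpha 1 on the vertical axes (colour, group; marker, library). MGD2 rises along with SQD2 (r = 0.91), GDPD and XPL1 do so less closely (0.56 and 0.65), and PLD alpha 1 runs against it (-0.66).

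By Pearson's r with the adjusted p, 0 of the 15 pairs passed 0.05, and 1, SQD2 with MGD2, had an unadjusted p under 0.05. The pairs of SQD2 with GDPD (r = 0.56, rho = 0.59), with XPL1 (0.65 and 0.59) and with PLD alpha 1 (-0.66 and -0.66) each had an adjusted exact permutation p of 0.230 for r over the 12 libraries. MGD2 went with GDPD at r = 0.70 and with XPL1 at r = 0.62, and PLD alpha 1 ran against XPL1 at r = -0.68, all at the same adjusted exact permutation p of 0.230. GDPD and XPL1 showed no common course, with r = -0.03. PLD alpha 2 had values of r between -0.41 and 0.46 with the other 5. Single libraries moved these values in both directions. When library c of DS IS22330 was left out, r of SQD2 was -0.30 with PLD alpha 1 and 0.42 with XPL1. That of MGD2 with PLD alpha 1, -0.58 over the 12 libraries, was then -0.29. MGD2 with XPL1 had 0.43 and XPL1 with PLD alpha 1 had -0.48, while MGD2 with GDPD stayed at 0.70. In the same way, without library c of WW IS22330, r of PLD alpha 1 was -0.94 with SQD2 (exact permutation p = 0.0116, adjusted 0.0868) and -0.84 with MGD2. The summed light reaction rows moved with the same libraries, with a within-group r of 0.76 to SQD2 and 0.60 to MGD2 over 12 libraries, and of 0.35 and 0.16 without library c of DS IS22330. Their r with PLD alpha 1 was -0.84, and -0.76 without that library, and with PLD alpha 2 it was 0.58 and 0.77. With XPL1 it was 0.64 and 0.41, and with GDPD 0.17 and -0.20. Their part in the r of any pair was not tested.

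Set against all transcripts, MGD2 stood high in the list of SQD2. Of 19021 transcripts, 0.263% had a within-group r with SQD2 at least as high as that of MGD2, against 9.63% for XPL1 and 13.7% for GDPD. Seen from MGD2, 0.2% were at least as high as SQD2 and 5.76% as high as GDPD. These shares describe the 12 libraries, whose transcripts are not independent of each other.

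Over all 12 libraries, group differences included, the 3 transcripts with the highest r to SQD2 were Sb02g000240.1 (r = 0.96), Sb09g019100.1 (0.95) and MGD2 itself (0.95). MGD2 had Sb02g024480.1, Sb09g019100.1 and SQD2 as its nearest (r = 0.95 each), so SQD2 and MGD2 each ranked 3 in the list of the other. The nearest to GDPD were Sb07g028520.1, a caffeoyl-CoA 3-O-methyltransferase of lignin synthesis (r = 0.88), Sb09g004590.1 (0.87) and Sb04g028870.1 (0.87). XPL1 was nearest to Sb01g043000.1, Sb10g024310.1 and Sb02g042860.1 (r = 0.98, 0.96 and 0.96), and PLD alpha 1 to Sb01g010940.1, Sb05g025890.1 and Sb03g000670.1 (0.97, 0.97 and 0.96). PLD alpha 2 was nearest to Sb10g002230.1, Sb01g027480.1 and Sb03g008050.1 (0.91, 0.91 and 0.90). XPL1 and PLD alpha 1 had an r of -0.89 over the 12 libraries, and 0.494% of transcripts were as low or lower in the list of XPL1. These values include the drought differences by which the members were listed and are given as description.

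The study's table holds 43 further lipid transcripts, chosen by the study on these samples, of which 29 passed the filter. For the averaged genotype difference, 2 were higher and 2 lower in IS22330 at an adjusted p under 0.05 (edgeR), beside 5.72% higher and 4.07% lower of all transcripts. A ceramidase transcript (Sb03g028410.1), which splits ceramide, was higher by 2.95 ± 0.44 on the log2 scale (SE, adjusted p = 9.4e-04), and the acyl activating enzyme AAE1 (Sb10g012080.1) by 2.67 ± 0.60 (adjusted p = 0.0149). A class 3 lipase (Sb09g001420.1) had a log2 ratio of -3.84 ± 0.97 (adjusted p = 0.0270), and the acyl-CoA oxidase ACX2 (Sb05g023970.1), of fatty acid breakdown, one of -1.73 ± 0.48 (adjusted p = 0.0437). When 1 library was left out, 2 or 3 lipid rows were still higher at this threshold. Those lower numbered 0 or 1, and 2 only without library c of DS IS22330. No transcript of phospholipid turnover was among them.

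The same table holds 6 other phospholipid transcripts, picked by name with earlier results known: 3 further glycerophosphodiester phosphodiesterases, 2 diacylglycerol kinases and PLS1, and 5 of them passed the filter. Of these 5, 4 were lower and 1 was higher without overlap in DS than in WW IS20351, and 0 of 5 lay apart in IS22330. Over all transcripts tested these shares were 15.2% lower and 21.5% higher in IS20351, and 9.13% and 4.93% in IS22330. The rows were listed for drought ratios in these libraries, so nothing is read from their count. The most abundant phosphodiesterase, Sb01g015000.1, had 93.9, 26.0 and 79.3 RPKM in WW IS20351 and 7.02, 16.5 and 14.3 RPKM in DS IS20351. In IS22330 it had 52.5, 13.5 and 21.6 RPKM in WW plants and 16.2, 18.8 and 91.4 RPKM in DS plants. This is the same set of high libraries as for SQD2 in IS22330, a in WW and c in DS.

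The second phosphodiesterase, Sb07g026000.1, had 10.9, 2.51 and 17.9 RPKM in WW IS20351 and 0.341, 0.597 and 1.40 RPKM in DS IS20351. Its IS22330 libraries had 4.81, 1.05 and 0.923 RPKM in WW and 0.821, 0.722 and 12.3 RPKM in DS plants. Sb06g019730.1 was between 0.145 and 5.72 RPKM in all libraries. DGK1 (Sb01g032250.1), a kinase that turns diacylglycerol into phosphatidic acid, ran the other way, with 2.48, 5.08 and 1.02 RPKM in WW IS20351 and 12.8, 6.04 and 19.4 RPKM in DS IS20351. In IS22330 it had 2.18, 3.36 and 4.57 RPKM in WW and 12.4, 10.8 and 1.18 RPKM in DS plants, library c lying below the WW libraries. The other kinase, Sb03g036460.1, was at 4.44 to 7.82 RPKM in WW IS20351 and at 0.600 to 0.773 RPKM in DS IS20351. Its IS22330 libraries overlapped, with 6.35, 0.999 and 3.99 RPKM in WW and 0.929, 1.10 and 6.66 RPKM in DS plants.

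**Figure D4:**
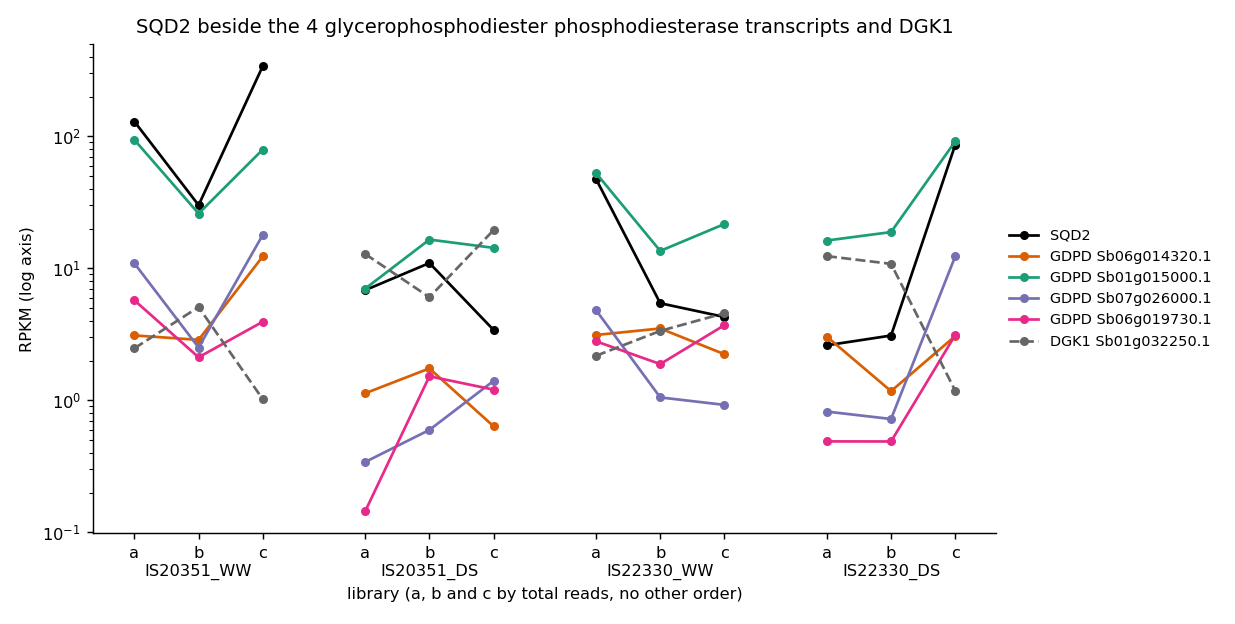
RPKM on a log axis of SQD2, of the 4 glycerophosphodiester phosphodiesterase transcripts and of DGK1 (dashed) in the 12 libraries, joined within each group only to guide the eye. In library c of DS IS22330, SQD2 (85.9 RPKM) and Sb01g015000.1 (91.4 RPKM) are high and DGK1 (1.18 RPKM) is low.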

How the data were processed

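Leaf RNA was sequenced on an Illumina Genome Analyzer IIx. The authors aligned cleaned reads to the Ensembl Plants sorghum genome with SOAPaligner/SOAP2 (at most 5 mismatches) and counted unique reads per transcript. The tables deposited by the authors give, per group, the mean of the unique reads over 3 libraries, used here as an expected count that need not be whole. They also give the mean RPKM computed by the authors. A library without reads entered these means as 0.001. Tables of the authors' own comparisons were not used. The whole reads of each library were solved from the pair of means for 27985 of 27989 transcripts, and 4 with several solutions, none a member, were left out. The solving and edgeR's test of the averaged genotype difference were checked on simulated data.

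Transcripts that reached 1 RPKM in 3 or more libraries (19022) were fitted with edgeR 4.0.16 (R 4.3.3; TMM scaling, group means model, prior count 0.125 for fold changes, quasi-likelihood F test, Benjamini-Hochberg adjustment). Calls used an adjusted p no higher than 0.001 together with a log2 ratio of 2 or beyond either way, and, separately, an adjusted p under 0.05. Co-variation used log2(RPKM + 0.1) and all 1296 rearrangements of libraries within groups, the smallest p they can give being 0.000772. Alternatives were RLE scaling, other filters, DESeq2 1.42.0, limma 3.58.1, other pseudocounts and leaving out each library.

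The reference table gave no name or sequence that matches these identifiers, so names are those of the study, sequences are not shown, and lists fell back on rows of the study's lipid, light reaction and Calvin cycle table. For each member and list gene, the choice was made with earlier results of these data known. The genes named are the members, list genes with an adjusted p under 0.05 in the averaged genotype difference, the most abundant of a family, and the 3 transcripts nearest to each member; the phospholipid rows beyond these were chosen after their values were seen. Summed Calvin cycle rows (9) ranged from 436 to 2845 RPKM.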

Additional observations from a re-analysis of the deposited data

How the results depend on the processing

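No paired analysis was possible because the deposited columns are group means and carry no replicate numbers. The averaged genotype difference called 486 transcripts, 904 with DESeq2, 1863 at an adjusted p under 0.05 with no minimum fold, and 346 to 479 without 1 library. Of the lipid rows it called 1, with 3 in DESeq2, 4 at the looser threshold, 0 with limma at either pseudocount, and 0 to 1 without 1 library (1 only without library c of DS IS22330). The drought response of IS20351 called 0 transcripts in edgeR (5092 at an unadjusted p under 0.05), 249 in DESeq2, 709 at the looser threshold and 0 to 7 without 1 library, the 7 being without library c of DS IS22330. Its lipid rows gave 0, 2 in DESeq2 and 5 at the looser threshold. In IS22330 it called 0 by this rule under every alternative run (2094 at an unadjusted p under 0.05). At an adjusted p under 0.05, leaving out library c of DS IS22330 moved the drought calls from 248 higher and 461 lower to 1168 and 1751 in IS20351, while leaving out any of the 6 IS20351 libraries, or library a or c of WW IS22330, gave 0 in both directions. Leaving out library c of DS IS22330 moved them from 0 to 224 higher and 572 lower in IS22330. Of the members' genotype ratios, PLD alpha 1 turned to -0.10 and -0.17 with limma at a pseudocount of 0.1 and 1. Without 1 library, PLD alpha 1 ranged from -0.16 to 1.03, GDPD from -0.14 to 0.56, SQD2 from -2.26 to 0.12, MGD2 from -2.51 to -0.52 (9 of 12 fits) and XPL1 from 0.055 to 0.56, and 0 members were called at an adjusted p under 0.05 in any of these fits. The cause of these shifts was not tested.

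Of the pairs of members, 0 passed by Pearson's r, against 1 by Spearman's rho, 1 with log2(RPKM + 1) and 0 to 1 without 1 library (1 without library a or c of DS IS20351), each time SQD2 with MGD2, whose Pearson's r stayed between 0.76 and 0.94 in all alternatives (rho 0.95). Fewer libraries leave fewer rearrangements and so a larger smallest p. MGD2 with PLD alpha 2 turned to -0.10 on TMM-scaled counts, -0.10 without the 2 farthest libraries, -0.072 without DS IS22330 (chosen after seeing the data) and -0.059 to 0.31 without 1 library. GDPD with XPL1 turned to 0.10 by rho, 0.044 on TMM-scaled counts, 0.21 without the 2 farthest libraries, 0.17 without DS IS22330 and -0.20 to 0.28 without 1 library. Without the 2 farthest libraries SQD2 with PLD alpha 2 became -0.35 and GDPD with PLD alpha 1 became 0.018. Few reads limit MGD2 and both PLD transcripts, which had under 10 reads in several libraries.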

Other observations

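The phospholipid rows outside the 6 members differed in how they deviated with SQD2 between replicates. Within groups, r with SQD2 over 12 libraries was 0.88 for the phosphodiesterase Sb07g026000.1, 0.88 for Sb01g015000.1, 0.56 for Sb06g019730.1 and 0.74 for the kinase Sb03g036460.1. DGK1 ran against SQD2 at -0.94. Without library c of DS IS22330 the same values were 0.76, 0.77, 0.19, 0.45 and -0.87. PLS1 had an r of 0.30, and of -0.15 without that library. These rows were picked after results were known, so the values are a description with no test.

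PLS1 (Sb08g016610.1), named by the study for phospholipid synthesis, had 424 reads (7.21 RPKM) in library b of WW IS22330 and 0 reads in libraries a and c of that group. It had 88 reads (1.54 RPKM) in library c of DS IS22330 and 0 in libraries a and b, and 0 to 6 reads in every library of IS20351. Its group means in IS22330 thus each rest on 1 library.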
